A study of Mus musculus with 17 samples.

Results

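The chromosome 4 zinc finger gene cluster is a run of 10 zinc finger genes, Zfp990, Zfp980, Zfp987, Zfp600, Zfp992, Zfp981, Zfp993, Rex2, Zfp978 and Zfp982, spread over the distal part of mouse chromosome 4 between 145510759 and 147516064 (GRCm38). It was described through the chromatin immunoprecipitation (ChIP-seq) peaks that lie inside these genes or have one of them as the nearest protein-coding gene. Of the 2948 peaks in the 4 deposited lists, 52 met this rule. The genes were chosen because peaks of the Utx-deleted lists are dense here, so the peak numbers below are a description with no test.

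Utx-deleted mice were females of genotype Cre+; Utx fl/fl, in which a keratin-14 (Krt14) Cre deletes the floxed Kdm6a (Utx) gene in keratin-14 expressing tissue. Their controls were females of genotype Cre-; Utx fl/fl, which carry the same floxed alleles without Cre and are called WT in the deposited lists. Age and strain are not given in the sources used here. Epidermal cell suspensions were crosslinked with formaldehyde and precipitated with an antibody against UTX, the H3K27 demethylase encoded by Kdm6a, or against H3K27ac, a histone mark of active promoters and enhancers. The labels hold 3 UTX and 3 H3K27ac libraries of Utx-deleted mice, and 3 UTX and 2 H3K27ac libraries of control mice, where the protocol speaks of 3 in every group. They also hold 3 input libraries of each genotype, and how these entered the peak calling is not described here. Other epidermal cells that do not express Krt14-Cre would keep Kdm6a, and the lists cannot separate them. UTX peaks are here peaks of the UTX antibody, and whether those after deletion hold UTX protein was not tested. Each list was called once on the merged libraries of its group, so the values carry no replicate error, and the depth of the libraries is unknown from the lists.

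The Utx-deleted UTX list held 213 peaks and the control UTX list 547. The Utx-deleted H3K27ac list held 48 and the control H3K27ac list 2140. Kdm6a had no peak assigned in any list, so the deletion cannot be checked from them. Of 8 keratinocyte markers (Krt5, Krt14, Krt1, Krt10, Trp63, Dsp, Jup and Itgb4), 0 had a peak in the Utx-deleted H3K27ac list and 3, Krt10, Dsp and Jup, in the control H3K27ac list. Of 6 markers of fibroblasts, immune cells and melanocytes (Col1a1, Col1a2, Ptprc, Cd3e, Dct and Mlana), 0 had a peak in either H3K27ac list. In both UTX lists, 0 of the 8 and 0 of the 6 markers had a peak. Over all protein-coding genes, 0.128% had a peak in the Utx-deleted H3K27ac list and 6.13% in the control H3K27ac list. The 0 of 8 after deletion is near that background, so no loss at these markers is read from it.

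Zinc finger genes of this kind encode DNA-binding proteins with long arrays of C2H2 zinc fingers, many of them behind a KRAB domain. KRAB zinc finger proteins are known for recruiting the corepressor TRIM28 and the H3K9 methyltransferase SETDB1, often at transposable elements, and so for silencing chromatin. Their genes lie in clusters formed by tandem duplication, and in a typical member the zinc finger array is encoded by the last exon. Roles of the single members in epidermis are not described here.

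The likeness of these duplicated genes was measured at their start sites, a property the choice of genes did not use. RefSeq (GRCm38.p6) gives start-site windows, from 250 bases before to 50 bases after the start, for 7 of the 10 genes and 10 windows in all. Zfp990, Zfp992 and Zfp978 have no entry. All 7 genes with a window lie on the plus strand. In 6 of the 7, 1 window belongs to a common type. The 120 bases from 150 to 31 before the Rex2 start, and their counterparts in the other genes of that type, show how alike the copies are. They are written in the direction of transcription, and capitals mark bases that differ from Rex2 in the alignment or are inserted relative to it.
Rex2 (chr4:147021700-147021819, plus strand): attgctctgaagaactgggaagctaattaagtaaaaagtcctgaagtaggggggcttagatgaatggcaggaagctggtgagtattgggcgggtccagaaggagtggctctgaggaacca
Zfp600 (chr4:146156677-146156796, plus strand): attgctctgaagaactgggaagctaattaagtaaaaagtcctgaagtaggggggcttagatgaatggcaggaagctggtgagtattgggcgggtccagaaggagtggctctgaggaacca
Zfp982 (chr4:147492251-147492370, plus strand): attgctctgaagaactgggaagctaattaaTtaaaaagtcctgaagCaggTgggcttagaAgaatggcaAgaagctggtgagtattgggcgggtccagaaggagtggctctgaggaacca
Zfp980 (chr4:145670541-145670660, plus strand): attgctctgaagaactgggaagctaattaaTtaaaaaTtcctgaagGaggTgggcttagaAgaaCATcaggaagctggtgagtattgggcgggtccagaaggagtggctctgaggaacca
Zfp987 (chr4:146097146-146097265, plus strand): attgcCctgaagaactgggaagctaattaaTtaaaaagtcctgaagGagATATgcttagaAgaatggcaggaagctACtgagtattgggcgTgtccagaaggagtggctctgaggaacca
Zfp981 (chr4:146514741-146514861, plus strand): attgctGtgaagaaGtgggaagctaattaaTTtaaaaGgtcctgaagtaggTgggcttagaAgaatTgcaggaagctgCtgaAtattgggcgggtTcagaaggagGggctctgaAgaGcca

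The Rex2 and Zfp600 stretches were identical although they lie 865023 bp apart. Zfp982 differed from Rex2 at 5 bases, Zfp980 at 8, Zfp987 at 11 and Zfp981 at 13 with 1 inserted base. Over whole windows, the 15 pairs of these 6 genes had a median identity of 89.3% of aligned bases, with a lowest value of 85.6%. Rex2 and Zfp600 were identical at every aligned base. This measure leaves out gaps. As a share of the window length, identity was 99.7% for Rex2 and Zfp600, and lowest, at 77.3%, for Zfp600 and Zfp981. By aligned bases, the same 6 windows set against all other chromosome 4 windows outside the region had a median of 54.7% and a highest value of 70.1%. Zfp993 stood apart, at 47.9 to 58.5% against the 6 others. Where a gene has several windows, the one most like the other genes was used, for Zfp982 the second of 3 and for Zfp600 the first of 2.

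**Figure D1:**
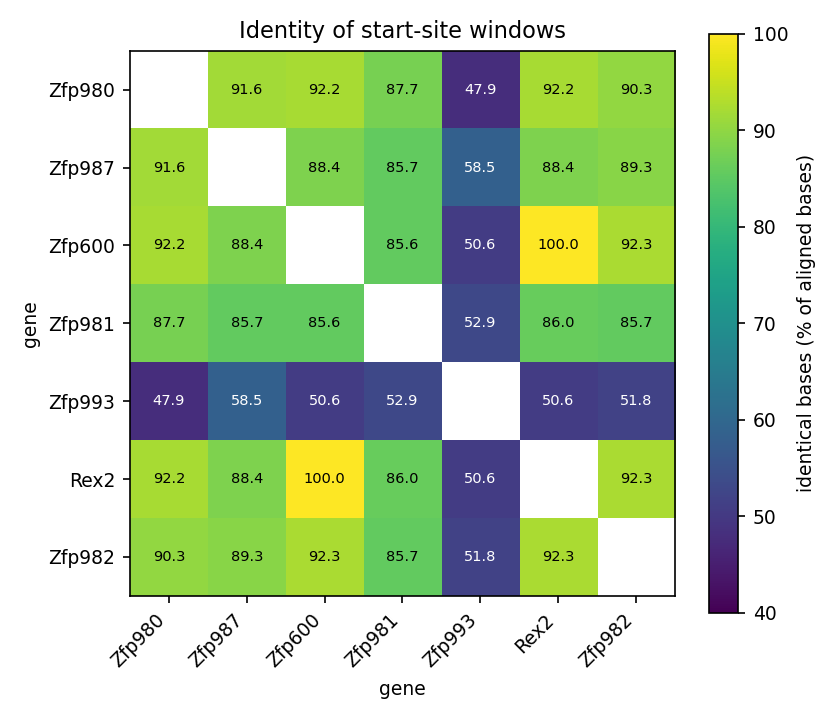
Identity, in percent of aligned bases, between the start-site windows of the 7 genes with an entry, with genes on both axes and 1 window a gene, chosen as most like the others. Rex2 and Zfp600 are identical at every aligned base, and the row of Zfp993 lies between 47.9 and 58.5%.

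The longest run of letters common to the 6 windows was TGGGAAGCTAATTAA, of 15 bases. Searched on both strands, it occurred in 12 of 32851 RefSeq windows (0.0365%), each of a different gene and all 12 inside the same region of chromosome 4. The 6 genes beside the members were Gm13212, Zfp534, Zfp979, Zfp984, Zfp985 and Zfp988. Of these 12 genes, 11 had a peak assigned in the Utx-deleted UTX list, Zfp988 being the exception, against 0.516% of all protein-coding genes. Zfp988 lies inside the span of Zfp978. The UTX peak from 147303680 to 147303959, just below Zfp988, was therefore assigned to Zfp978 alone. The 6 members among the 12 genes were chosen for such peaks, so nothing is read from the count of 11. UTX peaks after deletion were also present at the 4 members without the run: 6 at Zfp993, whose window lacks it, and 6 at Zfp978, 3 at Zfp990 and 1 at Zfp992, for which no window was searched. The run was picked from these windows, and its occurrence is a description of the copies, not of a binding site. How reads that align to several copies were placed is not given in the sources used here, and its part in the peaks was not tested.

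With the UTX antibody 39 peaks of Utx-deleted epidermis were assigned to the cluster, 18.3% of their list, and every one of the 10 genes had at least 1. In the Utx-deleted H3K27ac list there were 13, 27.1% of the list, at 5 genes: Zfp990, Zfp987, Rex2, Zfp978 and Zfp982. The control UTX and control H3K27ac lists had 0 peaks at any of the 10 genes. Over all 21887 protein-coding genes, 0.516% had a Utx-deleted UTX peak and 0.128% a Utx-deleted H3K27ac peak. In the control lists these shares were 2.44% for UTX and 6.13% for H3K27ac, so that 0 of 10 genes is near the background there. Since the Utx-deleted lists chose the genes, nothing is read from the height of the Utx-deleted counts.

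**Figure D2:**
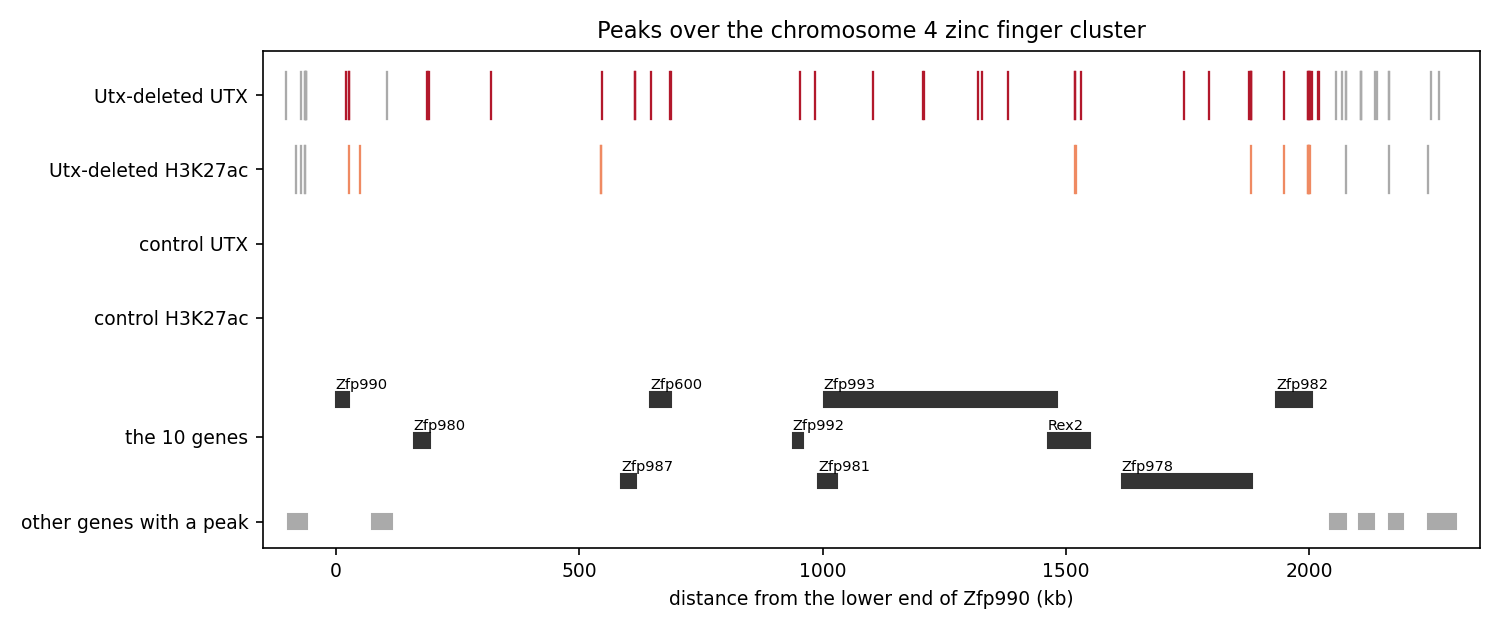
Positions of peaks along the cluster, in kb from the lower end of Zfp990, with 1 row for each list and 1 tick for each peak; grey ticks and bars are peaks and genes of the same region outside the 10 genes, black bars the 10 genes. The 2 Utx-deleted rows hold 39 and 13 coloured ticks, and the 2 control rows hold none.

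The control lists also had no peak for some distance beyond the genes. These lists are sparse over the whole genome, with 547 UTX and 2140 H3K27ac peaks. Gaps elsewhere were not measured, so nothing is read from the distances. The nearest control UTX peaks lay 6487191 bp below the cluster, at Tmco4, and 957159 bp above it, at Mtor. The nearest control H3K27ac peaks lay 3425871 bp below, at Tmem51, and 623822 bp above, at Mad2l2.

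Zfp982 (147443114 to 147516064) had the most peaks. After Utx deletion it held 9 of the UTX antibody and 6 of the H3K27ac antibody, against 0 of either antibody in control epidermis. Its UTX peaks covered 3128 bp and its H3K27ac peaks 1987 bp. Between 147507592 and 147516624, a stretch of 9033 bp at the upper end of the gene, 6 UTX peaks covered 26.2% of the sequence. The widest of them ran from 147508259 to 147509011 (753 bp). In the same stretch 5 H3K27ac peaks lay between 147507599 and 147512627, the widest of 491 bp. A separate pair lay in the lower part of the gene, a UTX peak of 353 bp from 147458705 to 147459057 with an H3K27ac peak of 206 bp wholly inside it. A last pair of UTX peaks, of 199 and 207 bp, lay 12736 and 13384 bp above the gene with no H3K27ac peak.

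Zfp978 (147124882 to 147392027) had 6 UTX peaks and 1 H3K27ac peak after deletion. Of the UTX peaks, 4 lay within 5053 bp at the upper end of this 267146 bp gene, and the highest ended 94 bp short of it. The other two, of 228 and 280 bp, lay inside the gene span and apart from the rest. The H3K27ac peak, from 147390784 to 147391057, overlapped the UTX peak from 147390668 to 147390887 by 104 bp.

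Zfp990 (145510759 to 145538251) had 3 UTX and 2 H3K27ac peaks after deletion. A pair of UTX peaks, of 246 and 310 bp, ended 138 bp from the upper end of the gene, and 1 H3K27ac peak of 467 bp spanned the gap between them. Zfp987 (146097312 to 146126624) had 3 UTX and 2 H3K27ac peaks. Its widest peak, 939 bp from 146056324 to 146057262, was the widest UTX peak of the cluster and lay 40050 bp below the gene, where both H3K27ac peaks of this gene also lay. The other two UTX peaks of Zfp987, of 397 and 199 bp, lay inside the gene at its upper end and had no H3K27ac peak. Rex2 (146973610 to 147060799) had 3 UTX and 2 H3K27ac peaks, and these lay past the middle of the gene span, 18457 bp or more from its upper end.

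The remaining 5 genes had UTX peaks and no H3K27ac peak after deletion. Zfp993 (146512849 to 146991471), the longest of the cluster at 478623 bp, had 6 UTX peaks of 199 to 355 bp. They were scattered through its middle, and 3 of them overlapped an annotated pseudogene, LOC115486238 or Gm21082. Zfp980 (145670697 to 145704437) had 4, of which 3 lay inside its upper part and 1 lay 124515 bp above the gene in the pseudogene Znf41-ps, the most distant peak assigned to any member. Zfp600 (146156827 to 146198756) had 3, 1 of them 1635 bp above its lower end and 1 of them 42 bp beyond its upper end. Zfp992 (146449030 to 146469440) and Zfp981 (146502000 to 146539395) had 1 each, of 226 and 219 bp, and that of Zfp981 lay 7713 bp below the gene. Some gene spans overlap: Zfp981 and Rex2 both overlap Zfp993, and a peak in such a stretch would count for both. No peak of the cluster did so.

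**Figure D3:**
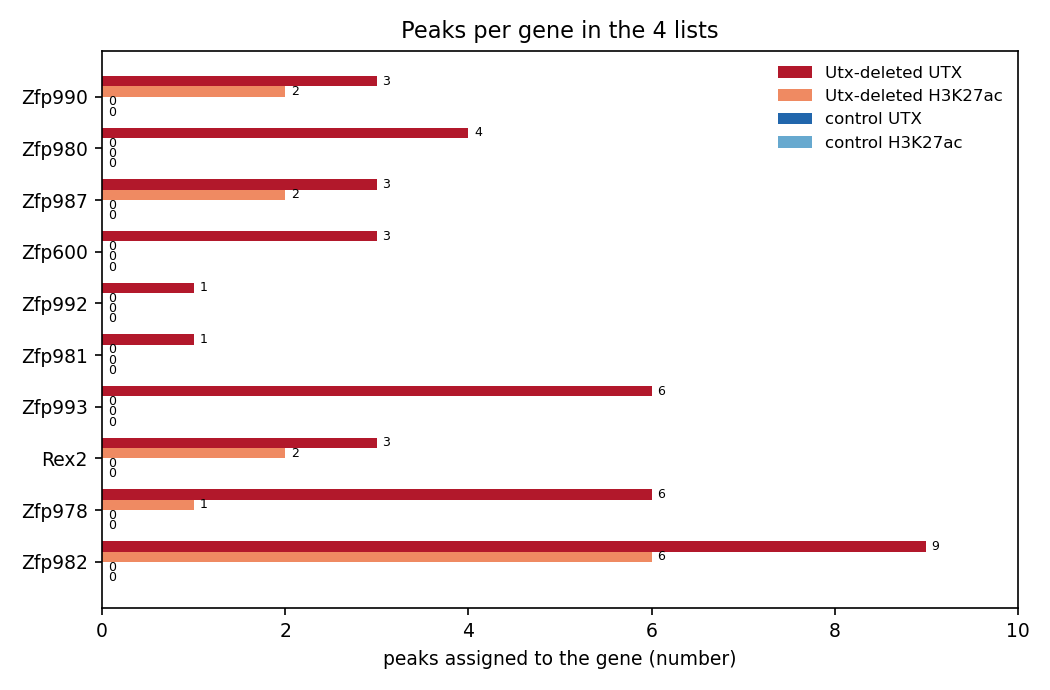
Number of peaks assigned to each of the 10 genes in the 4 lists; bars are counts from 1 merged list each, without error. Zfp982 leads with 9 UTX and 6 H3K27ac peaks after deletion, and all control counts are 0.

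Peaks of the Utx-deleted lists lay at the upper ends of the genes more than at their lower ends. The upper end is the end with the higher coordinate, which is the 3′ end of the 7 genes with a known strand. Within 10 kb of the upper end lay 21 of the 39 UTX peaks, and 2 within 10 kb of the lower end. For H3K27ac these counts were 7 and 0 of 13, and 5 of the 7 were at Zfp982. Counted by gene, 7 of the 10 had a UTX peak within 10 kb of the upper end: Zfp990, Zfp980, Zfp987, Zfp600, Zfp992, Zfp978 and Zfp982. Zfp981, Zfp993 and Rex2 had none there. The lower end had a UTX peak within 10 kb in 2 genes, Zfp600 and Zfp981. Zfp990, Zfp992 and Zfp978, counted above at the upper end, have no known strand. Of the 7 genes with a known strand, 4 had a UTX peak within 10 kb of the 3′ end and 2 within 10 kb of the 5′ end. Annotated pseudogenes overlap part of these stretches. In all, 12 of the 39 UTX peaks and 0 of the 13 H3K27ac peaks lay in the span of a pseudogene, and 6 of these 12 were among the 21 UTX peaks at upper ends. Beside the peaks in LOC115486238, Gm21082 and Znf41-ps, these were peaks in Vmn2r-ps15, Vmn2r-ps16 and Vmn2r-ps17, pseudogenes of vomeronasal receptors: 3 at Zfp600, 2 at Zfp987, and 1 each at Zfp980, Zfp992 and Zfp981.

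**Figure D4:**
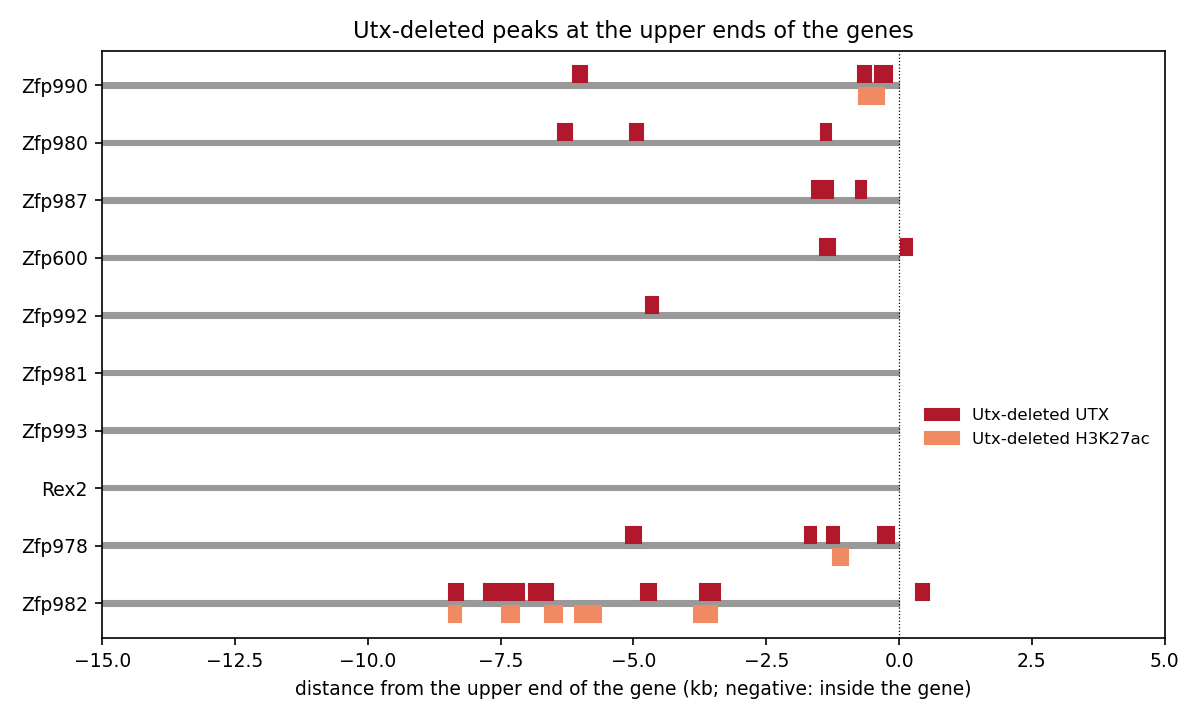
Utx-deleted UTX and Utx-deleted H3K27ac peaks around the upper end of each of the 10 genes, in kb, with grey bars for the gene; peaks beyond the plotted range are not drawn. Of the 10 rows, 7 hold UTX peaks and 3 hold H3K27ac peaks, nearly all inside the gene.

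The genes differ in length, so position was also taken relative to the gene for peaks inside a single protein-coding gene. Among the 22 such UTX peaks of the members with a strand, the median position was 80.3% of the way from the 5′ to the 3′ end, and 7 (31.8%) lay in the last 10% of the gene's length. Without Zfp982 these values were 73.2% and 4 of 16 peaks, and without Zfp993 they were 89.2% and 7 of 16. In the rest of the Utx-deleted UTX list, outside the region, the median over 41 peaks was 44.0% and 17.1% lay in the last 10%. In the control UTX list the median over 209 peaks was 44.0% and 5.7% lay in the last 10%. The 10 UTX peaks inside neighbouring genes of the region had a median of 82.5%, and 2 of them (20.0%) lay in the last 10%. Peaks of 1 gene are not independent of each other, and the difference was not tested. Exon positions were not used here, so whether these peaks lie on the exon of the zinc finger array was not measured.

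The RefSeq start-site windows themselves held no peak. Zfp990, Zfp992 and Zfp978 have no window, so their start sites were not examined. The nearest Utx-deleted UTX peak to any of the 10 RefSeq windows lay 723 bp from the second window of Zfp600. The window of Rex2 lay 7461 bp from a UTX peak and 8135 bp from an H3K27ac peak. For Zfp982 the third window was nearest, at 6857 bp from a UTX peak.

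After deletion the peaks of both antibodies met at part of the sites. Of the 39 UTX peaks of the cluster, 10 overlapped an H3K27ac peak by at least 1 bp (25.6%, Wilson 95% interval 14.6 to 41.1). In the rest of that list 24 of 174 did (13.8%, 9.45 to 19.7), and over the whole list 16.0%. The rest of a list, here and below, includes peaks of the other genes of the same region. Among all 60 UTX peaks of the region, cluster peaks included, 15 did. The intervals cover counting error only and take peaks as independent, which close peaks of 1 gene are not. Nothing is read from their overlap. Zfp982 held 5 of the 10, so 5 were left without that gene, and 4 were left when the overlap had to reach at least 50% of both peaks. From the other side, a UTX peak lay on 9 of the 13 H3K27ac peaks (69.2%, 42.4 to 87.3), against 26 of 35 (74.3%, 57.9 to 85.8) in the rest of the list and 72.9% over the whole list. The cluster share is thus near that of the same list. In the control lists 4 of 547 UTX peaks (0.73%) overlapped an H3K27ac peak, and 4 of 2140 H3K27ac peaks (0.19%) a UTX peak. The difference between the genotypes was not tested.

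Overlap ranged from part of a peak to the whole. UTX peaks covered all of the H3K27ac peak in 4 cases, 3 of them at Zfp982 and 1 below Zfp987. They covered 82.0% of the 467 bp peak at the upper end of Zfp990 and 88.2% of a Rex2 peak, and 38.0% of the peak at Zfp978. Of the 4 H3K27ac peaks without overlap, 3 lay 429 to 579 bp from a UTX peak, at Zfp982, Rex2 and below Zfp987. The remaining one lay 22746 bp above Zfp990 and 22884 bp from the nearest UTX peak.

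Peaks of the cluster were of modest width. Their median was 262 bp in the Utx-deleted UTX list, with a range of 199 to 939 bp, and 307 bp in the 174 other peaks of that list. In the Utx-deleted H3K27ac list the median was 251 bp, with a range of 199 to 491 bp, and 299 bp in the 35 others. Under other settings the H3K27ac cluster median was 300.5 bp with only peaks within 10 kb of a gene and 445 bp with peaks within 1 kb merged. The median of the other peaks was not taken under these settings, so whether the order holds there was not measured. The narrowest width in any list was 199 bp, and 6 of the 39 UTX peaks (15.4%) had exactly that width, against 11 of the 174 others (6.3%). Peaks of 1 list are not replicates, and these differences were not tested.

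**Figure D5:**
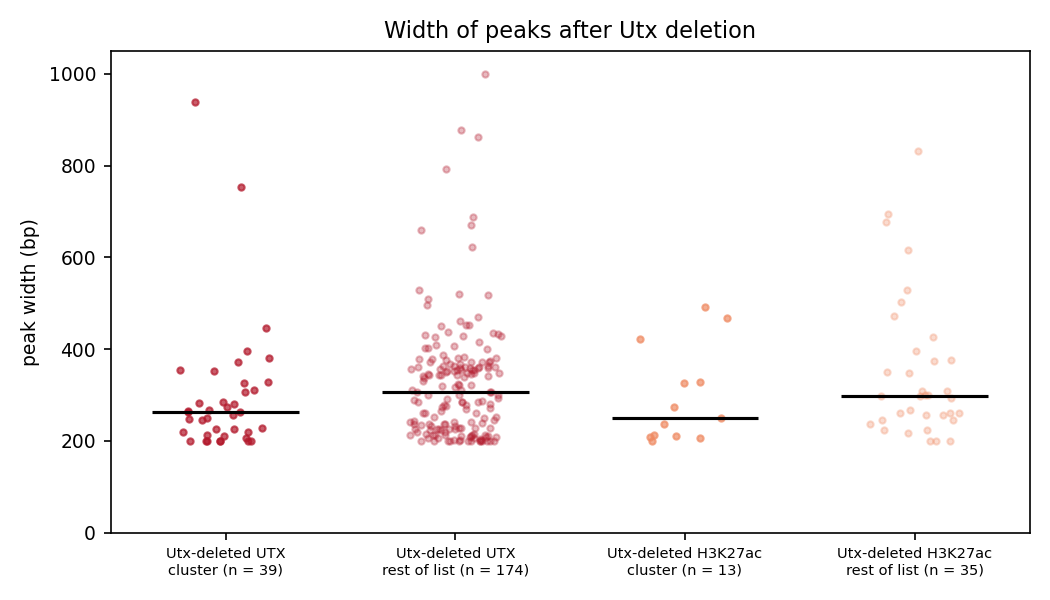
Width in bp of each Utx-deleted UTX and Utx-deleted H3K27ac peak, for the cluster and for the rest of the same list; points are peaks, spread sideways at random, and black lines are medians. The cluster medians are 262 bp for UTX and 251 bp for H3K27ac, against 307 and 299 bp in the rest, with wide overlap. With only cluster peaks within 10 kb of a gene, the H3K27ac cluster median is 300.5 bp, and the rest was not filtered in this way.

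Dense stretches of UTX peaks after deletion were also present elsewhere. Among 1 Mb windows outside the region, those with at least 15 Utx-deleted UTX peaks lay on chromosome X from 126000001 to 127000000, with 20, and on chromosome 8 from 20000001 to 21000000, with 18. As in the zinc finger cluster, both windows had 0 peaks in either control list. The control lists are sparse, and how often a 1 Mb window holds none was not counted. They differed in H3K27ac: the chromosome X window had 4 Utx-deleted H3K27ac peaks, all 4 on UTX peaks, and the chromosome 8 window had 0. Inside genes lay 32 of the 39 UTX peaks of the zinc finger cluster, 0 of 20 in the chromosome X window and 5 of 18 in the chromosome 8 window. The cluster peaks were taken by the gene they were assigned to, while the windows take every peak by position. These counts inside genes thus rest on different rules, and nothing is read from their difference. The windows were picked on their Utx-deleted UTX peaks, so the values are set side by side with no test.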

How the data were processed

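Per the file headers, the authors merged the samples of each group, called peaks with MACS2 and deposited start and end positions, with no height, fold enrichment or q. Per the submitters' processing notes, FastQC, Bowtie2, deepTools and bedtools were also used. These notes name both GRCm38 and GRCm39. Of the control H3K27ac peaks, 11.4% overlapped a GRCm38.p6 RefSeq start-site window, against 1.31% and 1.59% after a shift of 10 kb, so GRCm38 was used. The other lists, among them both Utx-deleted lists that hold the cluster peaks, were not checked in this way. Their build was taken to be the same. Coordinates are 1-based.

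Each peak was assigned to every protein-coding gene that holds it or, outside genes, to the nearest. Start-site windows were aligned globally (biopython 1.88), and identity was taken over aligned bases without gaps. Strand came from the windows. Protein sequences were not used here, so the planned comparison of proteins was not made. Assignment, overlap and merging were tested on simulated data. Scripts ran in Python 3.11.15 with matplotlib 3.10.9, pandas 2.3.3, numpy 2.4.6 and scipy 1.17.1.

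The members, lists and comparisons were chosen with earlier results of these data known. Named genes are the 10 members, their neighbours with a peak, up to 10 genes with a peak of each further list, and Kdm6a; others, among them the marker genes, were chosen after values were seen.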

Additional observations from a re-analysis of the deposited data

How the results depend on the processing

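Of 84 alternative values over 12 results, 63 stayed the same or, for counts, within 1.5 times, 36 of them control counts that stayed 0. The others follow; each setting changes which peaks are counted or how, and further causes were not tested. With only peaks wider than the median of their antibody in both genotypes, 10 UTX peaks at 4 genes and 5 H3K27ac peaks at 2 genes were left after Utx deletion, and 3 UTX peaks lay on H3K27ac. Merging peaks within 10 kb left 21 UTX and 7 H3K27ac peaks, and merging within 1 kb left 8 H3K27ac peaks. Counting every peak of the region gave 60 UTX peaks at 16 genes and 20 H3K27ac peaks at 9 genes. Without Zfp982, a setting chosen after seeing the data, 7 H3K27ac peaks were left and 5 UTX peaks lay on H3K27ac, and 4 did, with Zfp982 kept, when the overlap had to reach at least 50% of both peaks. The median UTX width was 271 bp with peaks within 1 kb merged and 259 bp over the region. The median H3K27ac width was 445 bp when merged, 300.5 bp within 10 kb of a gene and 259 bp over the region. The median of the other peaks was not taken under these settings. The median identity of start-site windows over all 21 pairs was 87.7%, and 82.0% as a share of the window length. Depth, mapping of repeated sequence, the peak threshold and single libraries could not be examined from the lists. No paired analysis was possible because the deposited peaks come from merged libraries.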

Other observations

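Other genes of the same region also had peaks after Utx deletion and none in control lists. That stretch of chromosome 4 holds 28 protein-coding genes, of which 18 are not among the 10, and 6 of these 18 had a peak. Over all protein-coding genes, 0.516% had a Utx-deleted UTX peak and 0.128% a Utx-deleted H3K27ac peak. The region was chosen for dense Utx-deleted peaks, so nothing is read from the 6 of 18. In the control lists the shares were 2.44% and 6.13%, so having none there is near the background. Gm42346, at the lower edge, had 7 UTX and 4 H3K27ac peaks after deletion. Zfp979, which RefSeq also lists as Ssm1b, had 5 UTX peaks and no H3K27ac peak. Zfp985 had 4 UTX peaks and 1 H3K27ac peak, and its widest UTX peak, of 862 bp, lay 173 bp beyond its upper end. Zfp534 had 2 UTX peaks and 1 H3K27ac peak, Zfp984 had 2 and 1, and Gm13212 had 1 and 0. Of these 6 genes, 5 have a known strand, and all 5 had a UTX peak within 10 kb of their 3′ end, also where the gene runs on the minus strand, as Zfp534 does, whose nearest peak lay 91 bp from it. Of the 5, 1 (Zfp979) also had a UTX peak within 10 kb of its 5′ end, and that peak was nearer, at 3139 bp against 4524 bp at the 3′ end. Zfp991, Zfp988 and Zfp933 were the zinc finger genes of the region without a peak assigned, and Fv1, a retrovirus restriction gene next to the cluster, had none. Zfp991 and Zfp988 lie inside the span of Zfp978, and a peak beside them is assigned to Zfp978 alone.

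Zinc finger genes elsewhere had few peaks in any list. Of 351 other genes named Zfp with a number, 4 (1.14%) had a Utx-deleted UTX peak and 0 a Utx-deleted H3K27ac peak, against 10 (2.85%) with a control UTX peak and 13 (3.7%) with a control H3K27ac peak. Over all protein-coding genes these shares were 0.516% and 0.128% after deletion, and 2.44% and 6.13% in control lists, so the shares of these genes lie near the background and are no result about them. The 4 were Zfp868, with 4 peaks, and Zfp106, Zfp608 and Zfp949, with 1 each. At Zfp106, Zfp608 and Zfp949 that peak overlapped the gene's 1 control UTX peak. A control UTX peak without one after deletion was assigned to Zfp266, Zfp37, Zfp469, Zfp516, Zfp704, Zfp821 and Zfp825. Zfp36, which encodes an mRNA-binding protein, had the most control H3K27ac peaks among these 351 genes, 6, followed by Zfp169 and Zfp217 with 3 each and Zfp706 with 2. Zfp207, Zfp362, Zfp407, Zfp46, Zfp672 and Zfp84 had 1 each. Of 25 annotated genes of the KRAB silencing pathway, among them Trim28 and Setdb1, 0 had a peak in the Utx-deleted UTX, Utx-deleted H3K27ac or control UTX list. In the control H3K27ac list 1 did, Daxx, a histone H3.3 chaperone. Both counts are near the shares over all genes.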
